A study of Mus musculus with 7 samples.

Results

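A set of 5212 chromatin regions carried an ATAC-seq peak in mouse embryonic fibroblasts (MEFs) and at each sampled day of reprogramming through day 9, and none in embryonic stem cells (ESCs). The regions were selected on the peak calls alone. The 7 peak lists were joined wherever peaks overlapped or touched, and a merged region was taken when it held a peak on days 0, 1, 2, 3, 6 and 9 and no ESC peak. They made up 4.99% of the 104346 merged regions and 8.86% of the 58856 regions with a day 0 peak. The presence and absence of peaks in these same libraries chose the regions, so their course over time is a description and not a result. The 5212 are called kept MEF regions below. With peaks at least 300 bp wide the same rule took 2936 regions, and with the 27074 widest peaks of each list 2307. The kept MEF regions are compared with 10172 regions that had a peak in all 7 libraries and with 24930 regions that had a peak on day 0 alone.

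ATAC-seq measures open chromatin through the insertion of sequencing adapters by the Tn5 transposase, here in 50000 cells per library. The MEFs came from a cross that brings together a tetO cassette of Pou5f1, Klf4, Sox2 and Myc in the Col1a1 locus (Col1a1tm1, Hoch/J, on a B6;129S4 background) and the rtTA*M2 transactivator in Gt(ROSA)26Sor (Jae/J, on a B6.Cg background). They were untreated on day 0 and received doxycycline, which switches the cassette on, at 2 µg/ml for 1, 2, 3, 6 or 9 days. The ESCs were untreated Bruce-4 cells, whose genotype entry repeats that of the MEFs. The methods describe embryos at mid-gestation. The labels name no selection of cells from the doxycycline-treated cultures, which can hold cells at different stages. Each time-point has 1 library, and no difference between time-points has a replicate check.

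A fibroblast keeps its identity through enhancers that are held open by AP-1 (Fos and Jun dimers), Tead, Runx and Cebp factors, and that lie near genes for extracellular matrix, the contractile cytoskeleton, adhesion and TGF-beta signalling. During reprogramming the mesenchymal programme gives way to an epithelial one, and the pluripotency network is switched on afterwards. Klf4, a factor of the cassette, binds a GC-rich motif that the other Klf factors and the related Sp factors also recognize.

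The stretches printed first were chosen for an AP-1 motif and are examples, not a sample of the kept MEF regions. Of 5209 of these regions, 31.6% held the motif in 300 bp around the middle of the widest day 0 peak. Each printed stretch carries the name of the protein-coding gene with the nearest start site, and each gene is from a different list. Some are far from it, with the Runx1 region 71689 bp and the Tns1 region 361214 bp away. Each stretch lies in the common core, the longest stretch covered by peaks of all 6 MEF-derived libraries. The stretches are mm10 plus strand, and capitals mark the AP-1 motif TGANTCA, which reads the same on both strands. The Runx1 core is 15 bp long and is printed whole.
Jun, chr4:95098376-95098495: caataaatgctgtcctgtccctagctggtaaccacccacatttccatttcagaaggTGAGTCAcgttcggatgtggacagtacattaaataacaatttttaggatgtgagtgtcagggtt
Tead1, chr7:112720242-112720361: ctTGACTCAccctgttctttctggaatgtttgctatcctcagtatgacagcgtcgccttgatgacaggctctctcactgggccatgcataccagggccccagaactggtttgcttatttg
Runx1, chr16:92624192-92624206: tgaggtgTGAGTCAt
Twist2, chr1:91816761-91816880: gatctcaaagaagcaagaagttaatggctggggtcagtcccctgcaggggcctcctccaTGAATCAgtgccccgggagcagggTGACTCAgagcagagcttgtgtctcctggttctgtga
Col5a1, chr2:27858686-27858805: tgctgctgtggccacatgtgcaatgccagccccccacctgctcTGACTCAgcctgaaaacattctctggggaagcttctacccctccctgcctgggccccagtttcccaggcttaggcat
Thbs2, chr17:14659896-14660015: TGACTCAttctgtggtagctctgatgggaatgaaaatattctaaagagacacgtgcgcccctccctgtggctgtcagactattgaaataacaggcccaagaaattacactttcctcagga
Acta2, chr19:34265810-34265929: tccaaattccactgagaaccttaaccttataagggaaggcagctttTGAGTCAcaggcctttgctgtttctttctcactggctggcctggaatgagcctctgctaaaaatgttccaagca
Tns1, chr1:73567027-73567146: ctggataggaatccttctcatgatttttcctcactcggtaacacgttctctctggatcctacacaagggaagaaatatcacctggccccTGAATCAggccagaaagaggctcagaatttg
The Twist2 stretch holds 2 AP-1 motifs, and the Tead1, Thbs2 and Acta2 stretches also hold the Tead motif GGAATG or its reverse complement. None of the 8 stretches overlaps an annotated exon.

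Away from gene start sites, a second motif was more frequent in the kept MEF regions (28.2%) than in those seen on day 0 alone (16.3%). It stood in 20.7% of all such regions with a day 0 peak. As examples chosen for this motif, 4 stretches are shown. Capitals mark the KLF motif GGGNGTG, or CACNCCC where it lies on the minus strand, in 4 of the widest such cores that lie away from the start sites of listed genes. Each stretch is centred on the first motif in its core.
Fbln5, chr12:101852080-101852179: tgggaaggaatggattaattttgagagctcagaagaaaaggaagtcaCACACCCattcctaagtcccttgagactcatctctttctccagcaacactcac
Axl, chr7:25782058-25782157: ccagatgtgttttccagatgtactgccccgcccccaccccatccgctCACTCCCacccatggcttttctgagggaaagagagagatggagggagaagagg
Cebpd, chr16:15984266-15984365: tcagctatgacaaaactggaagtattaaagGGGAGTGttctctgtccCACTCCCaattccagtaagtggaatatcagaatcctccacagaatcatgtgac
Timp3, chr10:86339489-86339588: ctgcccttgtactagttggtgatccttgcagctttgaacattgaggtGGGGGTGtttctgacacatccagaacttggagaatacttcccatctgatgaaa
The Cebpd stretch holds the motif on both strands, of which the first begins just outside the core and the second lies within it. The Fbln5 region lies 32719 bp upstream of this elastic fibre gene, and the Axl region lies 6057 bp downstream of the start of this receptor tyrosine kinase gene.

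The peak lists ranged from 33007 to 61241 peaks over the 6 MEF-derived libraries, and the ESC list had 27074. Among the MEF-derived lists those of day 9 and day 2 (33174) were the shortest. Among promoters of 7 fibroblast marker genes, 6 had a peak within 1000 bp of the transcription start site (TSS) on day 0 and 4 on day 9, while in ESCs 1 did, that of Vim. Among 7 pluripotency marker genes, 2 had such a peak on day 0 (Pou5f1 and Esrrb) and 1 in ESCs (Zfp42), so the pluripotency markers do not set the ESC list apart at promoters. Over all peaks nearest to these genes, the fibroblast genes together had 73 in the day 0 list, 31 in the day 9 list and 8 in the ESC list. The pluripotency genes had 25, 8 and 22 in the same order. A region without an ESC peak is one where none was called, and the part of peak calling in its absence was not tested.

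The kept MEF regions had like median widths in 4 of the 6 MEF-derived libraries and lower ones in the other two. In each region the widest peak of each library was measured. Taken in order from day 0 to day 9, the 6 median widths were 566, 532, 440, 556, 545 and 440 bp. The low values belong to the libraries with the shortest lists. Day 2 was the narrowest library in 28.5% of the regions and day 9 in 26.7%, against 6.35% for day 3. Regions with a peak in all 7 libraries were wider in each MEF-derived library, with medians from 592 bp on day 2 to 702 bp on day 0, and dipped on the same days. From day 0 to day 9, the widest peak became narrower in 68.9% of the kept MEF regions, with a median ratio of 0.832, and in 75.6% of the regions open in all 7 libraries, with a median ratio of 0.892.

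**Figure D1:**
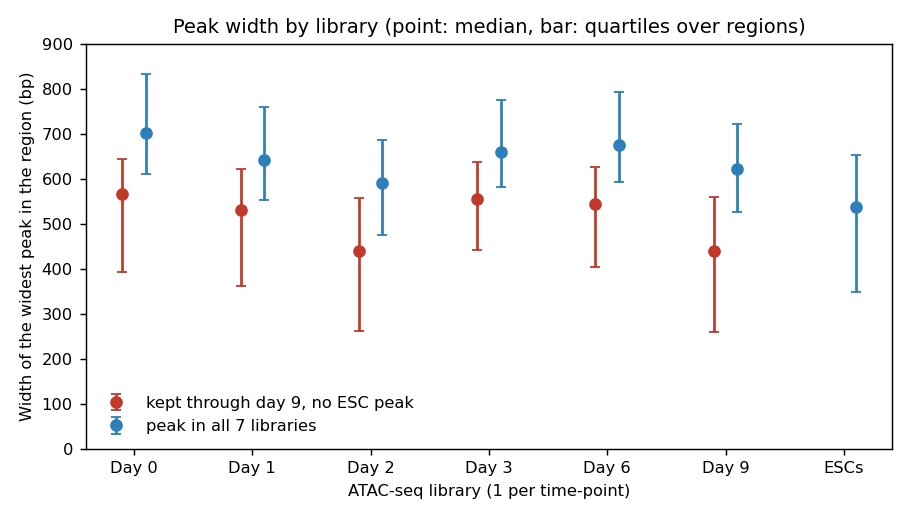
Width in bp of the widest peak of each library in the kept MEF regions (red, n = 5212 regions) and in regions with a peak in all 7 libraries (blue, n = 10172). Points are medians and bars are quartiles over regions. The red medians lie between 440 and 566 bp and below the blue ones in each of the 6 MEF-derived libraries, with the lowest values on days 2 and 9.

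Most of the kept MEF regions were simple in structure. In 3080 of them (59.1%) each of the 6 libraries had exactly 1 peak. A common core was present in 4394 regions, with a median of 208 bp and a maximum of 905 bp. The other 818 regions (15.7%) had no base covered in all 6 libraries, because the peaks of some days lay side by side. The merged region was 694 bp at the median and all together the regions spanned 3.84 Mb.

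At the edge of the rule the distance to an ESC peak was small. The nearest ESC peak was 21859 bp away at the median, and 95 regions (1.82%) had one within 500 bp. The closest members lay 13 bp from an ESC peak near 0610040J01Rik, 20 bp near Mad1l1 and 32 bp near Dmrta1. Just outside the rule, ESC and day 0 peaks shared 5 bp near Scgb1a1, 5 bp near Pde4dip and 6 bp near Igfbpl1. Among regions without an ESC peak that lacked exactly 1 of the 6 libraries, 2959 lacked day 0, 1476 lacked day 9 and 1135 lacked day 2, while between 157 and 315 lacked day 1, 3 or 6.

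The kept MEF regions lay mostly away from genes' start sites. Of the 5209 on chromosomes 1 to 19 and X, 987 (18.9%, exact 95% interval 17.9 to 20.0%) lay within 1000 bp of a protein-coding TSS, here called TSS-proximal. This compares with 79.5% of the regions open in all 7 libraries, 4.31% of those seen on day 0 alone and 22.1% of all regions with a day 0 peak. Among the kept regions taken with peaks at least 300 bp wide, 1063 of 2933 (36.2%) were TSS-proximal. The shares of the other classes were not computed at this width, so 36.2% has no matching value here. Introns held the middle of 38.5% of the kept MEF regions, intergenic sequence 40.4% and exons outside promoters 2.09%. The median distance to a TSS was 22913 bp, and 17.3% lay more than 100 kb away. These intervals cover counting error only, and regions are not replicates of a condition.

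**Figure D2:**
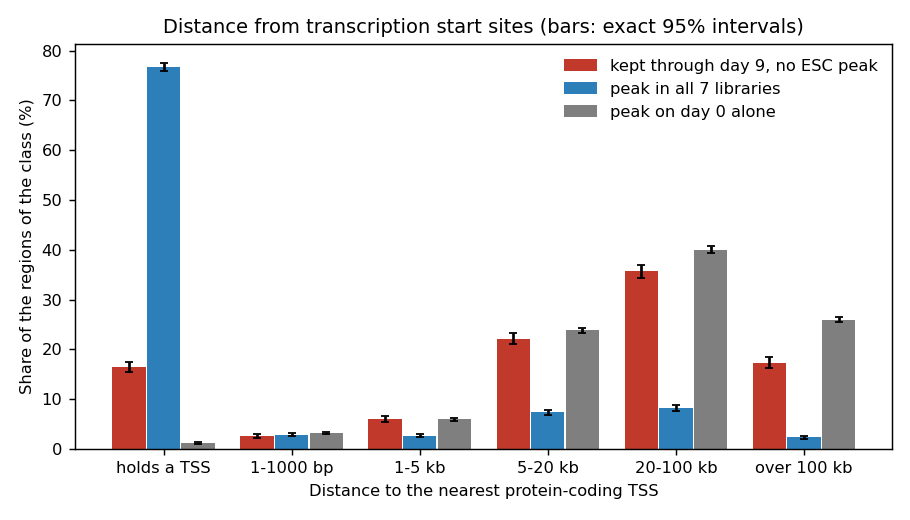
Share in percent of each class of regions by distance to the nearest protein-coding TSS, with exact 95% intervals. A TSS lies inside 16.4% of the kept MEF regions (red), 76.7% of the regions open in all 7 libraries (blue) and 1.18% of those seen on day 0 alone (grey), and 35.6% of the red class lies 20 to 100 kb away.

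Whether a region open through day 9 also had an ESC peak went with its position and width. Of the 15366 regions with a peak on all 6 days, 66.1% had an ESC peak, with 89.1% of the TSS-proximal and 33.0% of the distal ones. Among distal regions the share was 17.1% where the median width over the 6 days was under 300 bp and 50.1% where it was 600 bp or more. Among TSS-proximal regions it was 51.0% and 96.7% in the same width classes, so in both positions narrow regions more often lacked an ESC peak. Base composition also lay between the compared classes, with a median GC content of 50.7% in the 300 bp around the middle of the widest day 0 peak, against 64.7% for regions open in all 7 libraries and 45.7% for those seen on day 0 alone.

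AP-1 motifs were common in the kept MEF regions. TGANTCA occurred in the 300 bp window of 1646 of 5209 regions (31.6%), against 28% of all regions with a day 0 peak and 8.63% of windows of the same length placed 2000 bp to either side. Among the 2037 motifs found, 80.0% had C or G in the middle, the form bound best by Fos and Jun dimers, and 290 regions (5.57%) held 2 motifs. The motif was rarer in TSS-proximal members (7.19%) than in distal ones (37.3%, 35.8 to 38.8%), so distal regions were compared with each other. Distal regions with a peak in all 7 libraries held AP-1 in 23.4% (21.6 to 25.2%), below the kept MEF regions in windows of 200, 300 and 500 bp. At matched base composition the kept MEF regions were higher in each of 6 classes of GC content between 35 and 65%, but in each the intervals overlapped. The shares were 44.6% against 35% in windows of 40 to under 45% GC, 42.8% against 40.6% at 45 to under 50% and 34.2% against 29.0% at 50 to under 55%. Distal regions seen on day 0 alone held it in 34.0% (33.4 to 34.6%).

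The order between the kept MEF regions and those seen on day 0 alone was not stable. In a 200 bp window the kept MEF regions were higher by 8.40 percentage points (30.4% in all) and in a 500 bp window they were lower (45.1% against 49.1%). In windows of 45 to under 50% GC they were higher (42.8% against 33.4%), and at 55 to under 60% the values were 26.9% and 27.3%. At matched width they were lower, with 20.9% against 27.5% for day 0 peaks under 300 bp and 42.9% against 52.8% for peaks of 500 bp to under 600 bp. The 2 classes differed in where the motif lay, and also in peak width. The median day 0 width was 555 bp in distal kept MEF regions and 245 bp in distal regions seen on day 0 alone. A 300 bp window thus reaches past the median peak of the day 0 class. In the kept MEF regions AP-1 motifs were concentrated at the middle of the day 0 peak, with 5.90% of distal regions holding one in the 25 bp bin left of the middle. In regions seen on day 0 alone this bin held 3.52%, and higher shares lay to the sides, with 4.18% in the bin 137 bp to the right and 3.93% in the matching bin to the left. These side bins lie outside a peak of the median width of this class. The positions were not compared at matched width.

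KLF motifs gave a steadier contrast. GGGNGTG on either strand occurred in 28.2% (26.8 to 29.5%) of the distal kept MEF regions, in 16.3% (15.9 to 16.8%) of the distal regions seen on day 0 alone and in 36.3% (34.2 to 38.4%) of those open in all 7 libraries. All distal regions with a day 0 peak held it in 20.7%. Those with a day 0 peak outside these classes held it in 23.1% (22.5 to 23.8%), so a share above the day 0 class is not particular to the kept MEF regions. The kept MEF regions lay above the day 0 class in windows of 200 bp (19.7% against 11.1%) and 500 bp (40.2% against 25.6%). They also did so in each class of day 0 width, from 28.0% against 16.2% for peaks under 300 bp to 28.6% against 15.1% for peaks of 600 bp or more. The motif is rich in G and C, and part of the contrast went with base composition. In windows of 45 to under 50% GC it stood in 26.3% (23.8 to 28.8%) of the kept MEF regions and 17.8% (16.9 to 18.7%) of those seen on day 0 alone, and in windows of 55 to under 60% GC the intervals overlapped (36.5% and 34.0%). Against regions open in all 7 libraries the intervals overlapped in each of the 6 GC classes, and at 45 to under 50% GC those regions held the motif in 29.5%. KLF motifs stood in 28.9% (26.7 to 31.2%) of the kept windows with AP-1 and 28.6% (27.1 to 30.1%) of those without it.

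**Figure D3:**
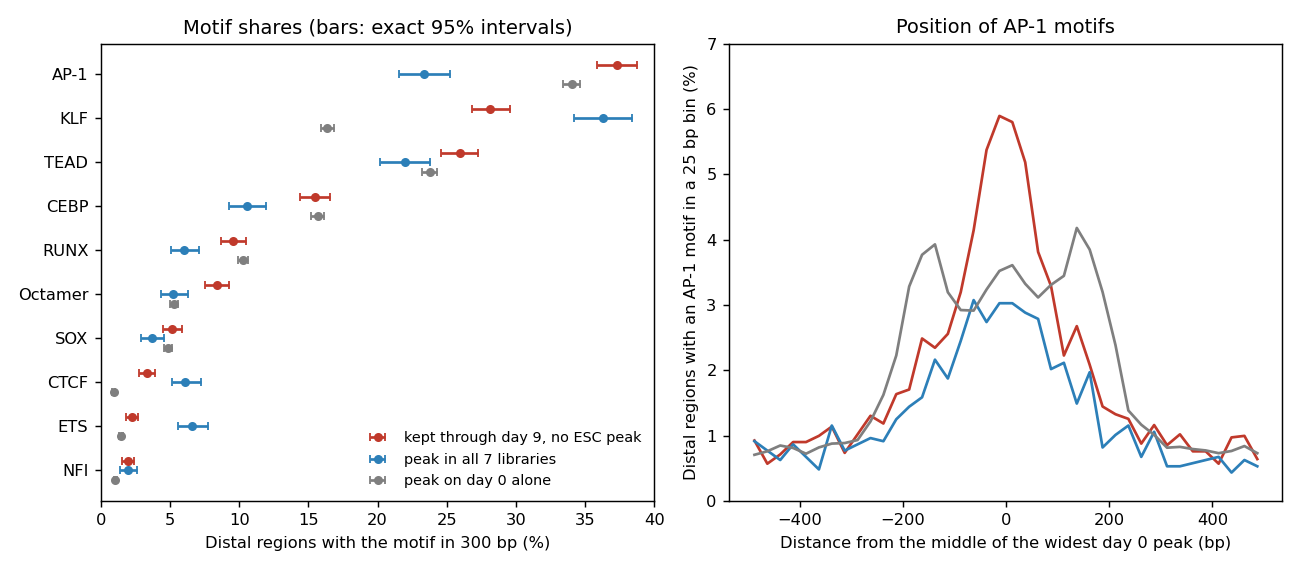
Left, share in percent of distal regions with each motif in 300 bp around the middle of the widest day 0 peak, with exact 95% intervals, for kept MEF regions (red, n = 4222), regions with a peak in all 7 libraries (blue, n = 2081) and regions with a peak on day 0 alone (grey, n = 23847). Right, share with an AP-1 motif per 25 bp bin by distance from that middle, where the red curve reaches 5.90% at the middle and the grey curve is highest 137 bp to the right, at 4.18%.

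The other motifs were less frequent. The octamer ATGCAAA, the motif of Pou factors such as Pou5f1, stood in 8.36% (7.54 to 9.24%) of the distal kept MEF regions, above 5.29% (5.01 to 5.58%) in regions seen on day 0 alone and 5.24% (4.32 to 6.28%) in those open in all 7 libraries. The joint motif of Pou5f1 and Sox2 occurred in 2 kept MEF regions. Motifs of CTCF, an insulator protein, were found in 3.29% of the distal members, between 0.910% in the day 0 class and 6.10% in regions open in all 7 libraries, and ETS motifs (CCGGAAG) in 2.20%, between 1.41% and 6.58%. The Tead motif GGAATG stood in 25.9% (24.6 to 27.3%), against 24.2% of all distal regions with a day 0 peak and 23.8% (23.2 to 24.3%) of the day 0 class. At day 0 widths of 400 bp to under 600 bp these Tead shares were 27.5% and, in the day 0 class, 27.9%. The Cebp motif TTGCNNAA stood in 15.5% and the Runx motif TGTGGTT in 9.52%. For Cebp and Runx the intervals overlapped those of the day 0 class (15.7% and 10.3%) and lay above those of regions open in all 7 libraries (10.5% and 6.01%). Full NFI motifs occurred in 1.92%, against 1.04% in the day 0 class and 1.92% in regions open in all 7 libraries. Both strands were searched for each, and a match is a description of the sequence, not a bound site. These motifs were not compared at matched base composition.

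To see near which genes the kept MEF regions lay, each was assigned to the protein-coding gene with the nearest TSS. At least 1 lay nearest to 3824 of 21938 genes, or 17.4%, where 72.4% of the genes were nearest to some region with a day 0 peak, and to 115 of the 226 genes on 14 lists of fibroblast, reprogramming and control functions. Of the 226 genes, 76 were overlapped by a kept MEF region. Listed genes often have many day 0 regions, so the share of a list's day 0 regions that were kept is the fairer measure, and 8.86% is its value over all genes. It was 15.6% (11.5 to 20.6%) for mesenchymal transcription factors, 14.4% (9.74 to 20.3%) for matrix glycoproteins and cross-linking enzymes and 14.1% (9.64 to 19.6%) for TGF-beta ligands, receptors and Smads. For pluripotency genes it was 2.88% (0.599 to 8.20%), or 3 of 104 regions. The intervals of the other 10 lists held the value of all genes.

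**Figure D4:**
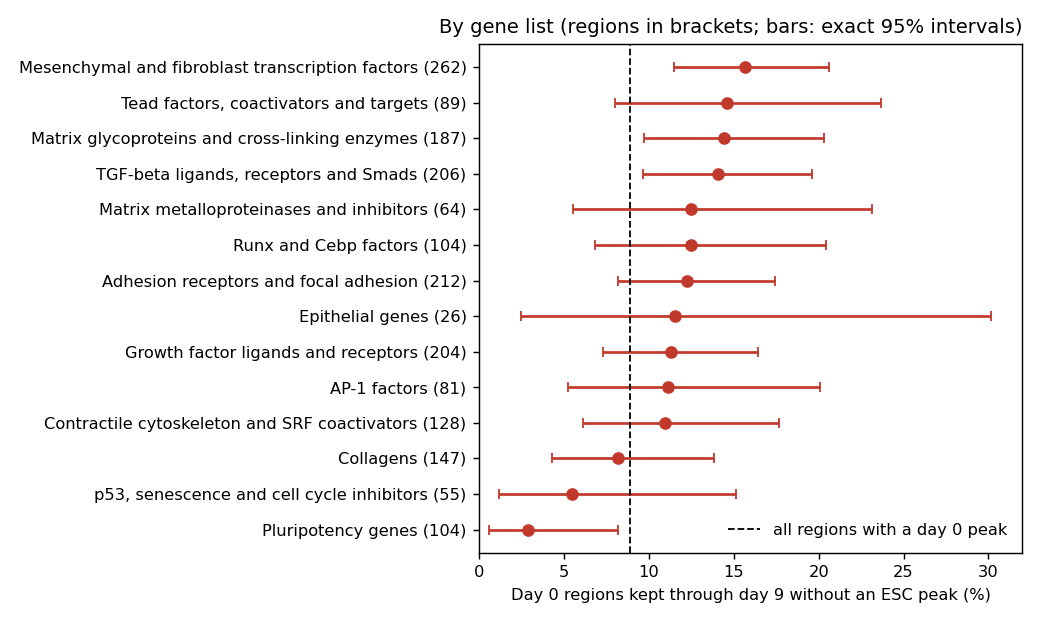
Share in percent of the day 0 regions nearest to the genes of each list that were kept MEF regions, with exact 95% intervals and the number of day 0 regions in brackets. The dashed line is the value over all genes, 8.86%, which lies below the intervals of 3 lists and above that of the pluripotency genes.

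Mesenchymal transcription factors had a kept MEF region at 17 of 24 genes, against 17.4% of all genes. The kept share of their day 0 regions was 15.6%, against 8.86% over all genes. The 17 genes became 13 within 100 kb and 10 where the region had to overlap the gene. With peaks at least 300 bp wide there were 11, and with the widest peaks of each list 10. Zeb2, a repressor of epithelial genes, had 5 of 32 day 0 regions kept, all between 463568 and 1325552 bp upstream of its TSS. Twist2, a fibroblast factor of the bHLH family, had 4 of 20, and its most even region lay 14944 bp downstream of the TSS. The widest peak of that region was 736, 654, 683, 640, 604 and 585 bp on days 0, 1, 2, 3, 6 and 9, and its core held 3 AP-1 motifs, 2 of them in the stretch printed above. The widest peak of this region was narrower on day 9 than on day 0 but widened from day 1 to day 2, with 1 library per day. Nfia, a nuclear factor I gene, had 4 of 13 kept, the Tcf4 gene 4 of 26 and the mesodermal factor gene Foxf1 3 of 6. Zeb1 and Snai1, which also act in the epithelial to mesenchymal transition, had none of 19 and none of 5.

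Some genes of the AP-1, Tead, Runx and Cebp factors themselves also lay near kept MEF regions. Of the day 0 regions, 11.1% (5.21 to 20.0%) were kept for AP-1 factors and 14.6% (8.01 to 23.7%) for the Tead list. For Runx and Cebp factors the share was 12.5% (6.83 to 20.4%). These lists had 81, 89 and 104 day 0 regions in the same order. Each share was above the 8.86% of all genes, but each interval held that value. Jun had 2 of 13 day 0 regions kept. The Jun region at 45942 bp upstream had widths of 504, 461, 536, 625, 515 and 516 bp over the 6 days, and its core holds the motif printed above. Maff had 2 of 3, and Fos, Fosl2, Batf, Atf3 and Junb had 1 each, of 14, 15, 5, 12 and 3. The Junb region lay at the promoter, 744 bp from an ESC peak. Fosb, Fosl1, Jund and Batf3 had none of 9, 3, 1 and 3. Tead1 had 5 of 16 kept, of which 3 lay over the gene, and 3 held AP-1 in the core. Runx1 had 5 of 38 and Runx2 4 of 18, while Runx3 had none of 9. Among the Runx regions the one 25276 bp downstream of the Runx2 TSS varied least, with 626, 577, 617, 580, 627 and 576 bp. The Runx1 region at 280945 bp upstream measured 693, 666, 650, 610, 642 and 650 bp. Axl, a Tead target, had 2 of 3 kept, its promoter and a region whose core of 637 bp held 3 AP-1 motifs. The Tead list was uneven. Ccn1 had 2 of 10, neither with a common core, and Tead4, Wwtr1, Ankrd1 and Tead3 had 1 each, of 6, 5, 5 and 2. Vgll3, Ccn2, Yap1, Amotl2 and Tead2 had none of 15, 14, 6, 5 and 2.

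Among matrix genes, 12 of 20 glycoprotein and cross-linking genes and 6 of 14 collagen genes had a kept MEF region. The kept share of day 0 regions was 14.4% (9.74 to 20.3%) for the first list. For collagens it was 8.16% (4.29 to 13.8%), near the 8.86% of all genes. Thbs2, which encodes thrombospondin 2, had 4 of 16 kept, including its promoter at 727, 708, 589, 698, 674 and 626 bp. That promoter lay 177 bp from an ESC peak. Fbln5, Fbln2, Vcan and Tgfbi had 3 each, out of 6, 7, 5 and 7 day 0 regions. Their peaks were not equally stable, since 1 of the 3 regions each of Fbln5, Fbln2 and Vcan had no base covered in all 6 libraries, while the 3 Tgfbi regions had cores of 326 to 461 bp. Col1a2, a chain of type I collagen, had 3 of 17 kept, and its promoter measured 530, 598, 543, 475, 493 and 469 bp, with the nearest ESC peak 95040 bp away. Col1a1, the other chain, had 2 of 12 kept, both upstream. That locus also carries the reprogramming cassette. Col3a1, Col6a3 and Fn1, which are typical fibroblast matrix genes too, had none of 14, 9 and 17. Among proteinases and their inhibitors 6 of 13 genes had a kept region, with 2 each at Timp2 and Timp3 and 1 at Mmp14 with a core of 669 bp. The kept share of this list was 12.5% (5.55 to 23.2%), and the interval held the value of all genes.

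Contractile genes had a kept MEF region at 9 of 20. The kept share of their day 0 regions was 10.9% (6.11 to 17.7%), and the interval held the 8.86% of all genes. Acta2, which encodes smooth muscle actin, had 2 of its 3 day 0 regions kept. The Acta2 promoter was among the widest, with 813, 951, 660, 879, 1513 and 798 bp, and the nearest ESC peak was 61828 bp away. The second region, 9848 bp upstream, measured 511, 637, 634, 627, 689 and 503 bp and holds the AP-1 motif printed above. Actn1 had 3 of 10, Actn4 2 of 7 and Myh9, the non-muscle myosin heavy chain gene, 2 of 9. Tagln, Vcl and Cald1 had none of 2, 12 and 11.

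Of 18 adhesion genes, 12 had the nearest TSS to a kept MEF region and 7 were overlapped by one. The kept share of their day 0 regions was 12.3% (8.17 to 17.5%), and the interval held the 8.86% of all genes. The tensin genes Tns1 and Tns3 had 5 each, out of 27 and 35 day 0 regions. Thy1, a surface marker of fibroblasts, had 3 of 11 and paxillin (Pxn) 3 of 6. Cd44, the hyaluronan receptor gene, had its promoter kept at 721, 701, 641, 694, 636 and 538 bp and a region 42035 bp upstream at 694, 736, 697, 649, 836 and 668 bp. Both lay over 100 kb from an ESC peak. The neural cadherin gene Cdh2 had none of 20.

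In the TGF-beta pathway 13 of 18 genes had a kept MEF region. The kept share of their day 0 regions was 14.1% (9.64 to 19.6%), against the 8.86% of all genes. Among ligands, Tgfb3 had 3 of 11 and Tgfb2 2 of 17, while Tgfb1 had none of 2. Among receptors, Tgfbr2 had 3 of 18, including its promoter at 820, 738, 746, 582, 584 and 438 bp. Among the inhibitory Smads, Smad6 had 5 of 15 and Smad7 4 of 27. All 5 Smad6 regions lay downstream of its TSS, from 41118 to 130745 bp, and 3 had a core of at least 472 bp. The signal-transducing Smad2 and Smad3 had 2 of 9 and 1 of 19. Growth factor and receptor genes had a kept region at 12 of 22. Their kept share was 11.3% (7.28 to 16.4%), and the interval held the 8.86% of all genes. Fgfr2 had 5 of 20, Pdgfc 3 of 16 and Igf2r 3 of 9, and Pdgfra and Pdgfrb had none of 4 each.

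Of the control lists, that of the pluripotency genes lay below the value over all genes. Of its 20 genes, Klf4, Tfcp2l1 and Nr5a2 had 1 kept region each, and at Klf4, itself a gene of the cassette, 21 of 31 day 0 regions were seen on day 0 alone. Each of the 3 lay over 100 kb from its gene's TSS. Of 16 epithelial genes, Epcam, Dsp and Grhl2 had 1 each, or 3 of 26 day 0 regions (11.5%). Of 10 genes of p53 signalling and senescence, Mdm2, Cdkn2b and Btg2 had 1 each, or 3 of 55 day 0 regions (5.45%). The intervals of both lists held the value of all genes.

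Promoters of listed genes made up 26 of the kept MEF regions. Widths of at least 400 bp in all 6 libraries were found at 9 of them, those of Timp2, Foxc1, Thbs2, Lox, Tcf4, Acta2, Cd44, Col1a2 and Tgfbr2. The promoter of Lox, which encodes a collagen cross-linking oxidase, measured 954, 637, 489, 751, 689 and 492 bp. Others were uneven, such as that of Runx2 with 730, 692, 211, 585, 691 and 200 bp and that of Vegfa with 200, 556, 364, 280, 384 and 605 bp. In 7 of the 26 an ESC peak lay within 2000 bp.

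The gene with the most kept MEF regions was Klf6, which encodes a Klf factor of the zinc finger type, with 9 of its 39 day 0 regions. They lay from 558687 bp upstream to 331546 bp downstream of the TSS, and 8 of them had a common core, the longest of 464 bp. The region closest to the gene, 9814 bp downstream, measured 528, 594, 509, 545, 642 and 542 bp over the 6 days. The Klf6 neighbourhood also held 3 regions with a peak in all 7 libraries and 18 seen on day 0 alone. Gas1, a growth arrest gene, had 6 of 14 and Irf2bp2 6 of 23. Svil, Haao, Zfp608, Med13l, Ank3 and the uncharacterized 4930558K02Rik also had 6 each, of 24, 25, 46, 28, 25 and 16. For 2010111I01Rik it was 7 of 17. Over all regions with a day 0 peak 8.86% were kept, and a ranking by number favours genes with many day 0 regions.

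**Figure D5:**
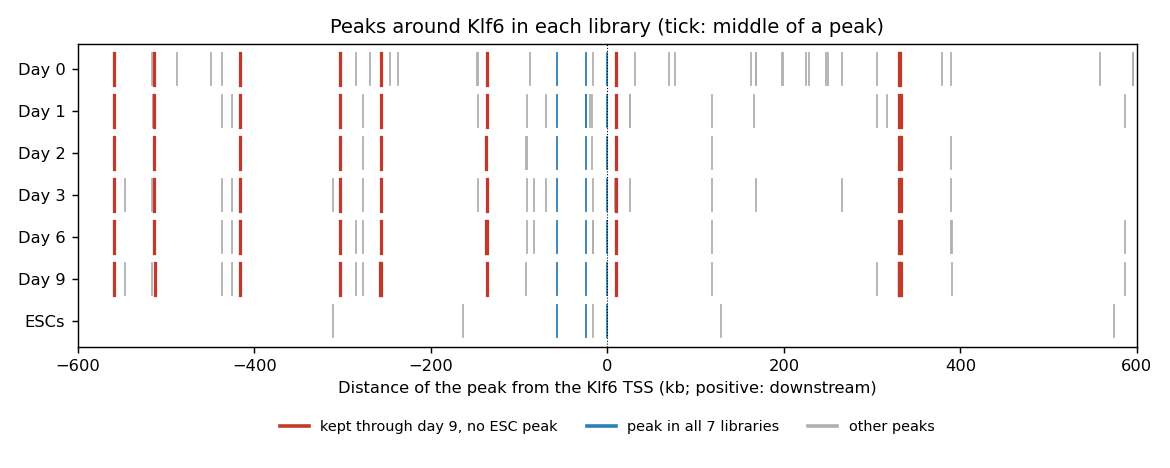
Peaks within 600 kb of the Klf6 TSS in each library, with a tick at the middle of each peak, by distance from the TSS in kb. The 9 kept MEF regions (red) appear in each MEF-derived library and not in ESCs, 3 regions (blue) appear in all 7 libraries, and the other peaks (grey) are most numerous on day 0.

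The longest common cores were not at listed genes. A region 4554 bp downstream of the Atp5h TSS had a core of 905 bp, with widths of 1131, 1617, 1522, 1563, 1462 and 951 bp. It was followed by regions near Irf1 (853 bp), an interferon response factor gene, Zfp281 (849 bp) and Ank2 (795 bp). The Ank2 region lay 65029 bp upstream, measured 1029, 1030, 1010, 996, 866 and 910 bp, and held 5 AP-1 motifs in its core. The other 6 of the 10 longest, near Pnrc1, Atp2b4, Tm9sf3, Cdh5, 2310061I04Rik and Morn1, had cores between 706 and 737 bp, and all 10 lay more than 1000 bp from a TSS. At the other end, the cores near Maml3 and Sema3a were 1 bp and that near Nfil3 was 2 bp.

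The kept MEF regions were mostly scattered. Within 10000 bp of each other, 474 of them (9.10%) formed 231 runs of 2 or more. The longest runs had 3 regions each and numbered 12, among them a run over 11784 bp near Actn4 and Capn12 and a run over 17571 bp near Jag1, a Notch ligand gene. By chromosome, the share of day 0 regions that were kept ran from 7.22% on chromosome 14 to 10.3% on chromosome 7.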

How the data were processed

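ATAC-seq was analysed in 7 mouse libraries, 1 per time-point, grouped by the time-point in their labels. As deposited, each file lists peaks by position alone (chromosome, start, end), without a score or a count of reads. The authors cut reads to 50 bp (Trimmomatic), aligned them to mm10 (Bowtie2), marked duplicates with Picard, downsampled the libraries to the same depth, which the methods do not give, and called peaks per library with MACS2 (no model, extension 200, shift 100, q-value cut-off 0.05). Read depth per library is thus unknown, and a missing peak is no measure of closed chromatin.

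Peaks were merged where they touched or overlapped by 1 bp, and the merging was checked against BEDTools 2.31.1. Regions on unplaced sequences (3 members) were left out of position, motif and gene counts. TSSs were those of protein-coding genes in GENCODE M21, distal means over 1000 bp from each, and positions count from 1. Motifs were searched on both strands of the mm10 sequence in 300 bp around the middle of the widest day 0 peak. The 95% intervals of shares are exact binomial ones and reflect counting error alone. No p-value was computed. The code was tested on simulated data, where 100% of 2000 planted regions were classed correctly. Python 3.11.15, scipy 1.17.1 and pysam 0.24.0 were used.

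The members and the gene and motif lists were chosen with earlier results of these data known. The text names up to 5 genes of each list with the most members, the 10 genes with the most members, the 10 longest and 3 shortest cores, and the regions nearest to the edge of the rule. Any further gene named, the KLF stretches and the promoter widths were chosen after their values were seen. The sequence of each AP-1 stretch is the middle of the core of the member with the longest core among those with the motif in the middle 120 bp of the core, at the first such gene of a list.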

Additional observations from a re-analysis of the deposited data

How the results depend on the processing

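No paired analysis was possible because only 1 library exists for any time-point. The number of kept MEF regions (5212) was 2936 with peaks at least 300 bp wide, 2307 with the 27074 widest peaks of each library and 8864 when the day 2 and day 9 libraries were not used. Leaving out 1 library at a time gave between 5342 and 6679, and merging within 300 bp gave 5250. The TSS-proximal share (18.9%) was 17.7% at 500 bp, 21.5% at 2500 bp, 23.6% with the TSSs of all annotated genes, 36.2% with peaks at least 300 bp wide and 21.6% with equal numbers of peaks. The AP-1 share (31.6%) was 25.7% in 200 bp, 38.7% in 500 bp, 29.1% around the core, 37.3% in distal regions, 33.8% for day 0 peaks of 400 bp to under 600 bp, 29.1% with peaks at least 300 bp wide, 38.2% with equal numbers of peaks and 42.8% in distal windows of 45 to under 50% GC. The listed genes with a kept region numbered 76 instead of 115 when the region had to overlap the gene, 102 within 100 kb and 78 with either peak selection. For the pluripotency genes, none of the 3 remained within 100 kb. The comparisons of distal classes by window were chosen after seeing the data. The AP-1 share of distal kept MEF regions minus that of the day 0 class was 3.26 percentage points, and -3.91 in 500 bp, 8.40 in 200 bp and 0.22 with peaks merged within 200 bp and windows centred on their span, and the KLF difference (11.8 points) stayed between 8.57 and 14.6. The cause of these shifts was not tested.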

Other observations

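Neighbouring peaks of the same library often lay close together, and AP-1 motifs around the middle of the gap between them were most frequent on day 0. On day 0, 5571 pairs of neighbouring peaks were separated by at most 200 bp, and 23.2% (22.1 to 24.3%) had TGANTCA in the 100 bp centred on the middle of the gap. Where the gap was under 100 bp, this window reached into the peaks. No share was computed for 100 bp windows placed elsewhere. From day 1 to day 9 the shares were 13.3, 10.8, 12.5, 8.91 and 7.51%, over 3244, 2306, 3532, 3469 and 2036 pairs. ESCs had 1414 such pairs and a share of 3.04% (2.21 to 4.07%). Joining peaks within 200 bp brought the regions seen on day 0 alone from 24920 to 21087 on the main chromosomes and the kept MEF regions from 5209 to 5254. The authors' shift of 100 and extension of 200 set where a peak lies relative to the cut sites, and their part in these gaps was not tested.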
